A study of Schizosaccharomyces pombe with 4 samples.

Results

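The internal regions of the fission yeast genome richest in newly incorporated histone H3 are the 747 tiling probes, of 37351 eligible ones and 41551 non-control probes in all, with the highest H3-T7 ratio of immunoprecipitate over input. A probe was eligible if it lay on chromosomes I to III, more than 125 kb from the tiled ends, outside windows around the 3 centromeres and the mating-type region, without an outlier flag and without the suffix f or m in its name. Its value is the mean over 4 arrays of log2 of Cy5 over Cy3 minus the array median, followed by a running median over 3 neighbours, and the top 2% were taken. The level of these probes is therefore what chose them and is given as a description. The threshold came to 0.73 on the log2 scale, 1.66-fold over the array median.

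The arrays, 2-colour ChIP-chip with Schizosaccharomyces pombe chromatin, numbered 1 for each of 4 groups: clr3-CDx2 ON, wt ON, clr3-CDx2 OFF and wt OFF. All cells carried cdc25-22 and H3T7, and were by the labels' protocol a tetO-ade6+ strain with TetR-Clr4, the H3 lysine 9 methyltransferase Clr4 fused to the Tet repressor, under a thiamine-repressible promoter. ON cells grew without thiamine for 20 generations, so that TetR-Clr4 was made, and OFF cells grew with 5 µg/ml thiamine and 2.5 µg/ml tetracycline, so that ON and OFF differ in medium as well as in the fusion protein. Every culture grew at 26 °C and was held at 36 °C for 4 h, which arrests cdc25-22 cells before mitosis. Treatment with β-estradiol (1 µM, 2 h) then set off Cre recombinase, so that H3 made from then on bore T7 in place of HA. After fixation with 1% formaldehyde the chromatin was sheared to about 1000 bp, so neighbouring probes, 300 bp apart, share fragments. The clr3-CDx2 groups carry an altered gene of Clr3, a histone deacetylase that acts on lysine 14 of H3. The labels do not explain CDx2 or say where tetO-ade6+ lies.

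Nucleosomes are mostly laid down behind the replication fork, but old histones are also swapped for new ones outside S phase. In yeasts this exchange is known at promoters and along strongly transcribed genes, where RNA polymerase disturbs nucleosomes, and it is known to be low in heterochromatin. In arrested cells the H3-T7 ratio reports new H3 that is present at a site, but no array measured total H3, so more exchange cannot be told apart from more H3. Heat shock genes of eukaryotes are switched on by Hsf1, which binds inverted repeats of GAA. In fission yeast the stress kinase Sty1 acts through the transcription factor Atf1, which binds TGACGT, and the GATA factor Fep1 represses iron uptake genes when iron is plentiful.

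Heat shock, stress and iron uptake genes were among the genes that hold the richest probes, and upstream sequence of some is shown for that reason. Also shown is hsp3105, which shares a run of rich probes with fip1. Control of these genes by the factors named was not tested. Each sequence is the 250 bases before the annotated gene start, 5′ to 3′ on the gene's strand, from the RefSeq genome ASM294v3, and none overlaps another annotated protein-coding gene. The first set shows hsp90 (chrI:3891140-3891389, minus strand), sti1 (chrIII:1263576-1263825, minus strand) and hsp16 (chrII:2660993-2661242, minus strand), with capitals for an inverted pair of heat shock units, TTCNNGAA or GAANNTTC, which begins 57 bases before hsp90 and 93 bases before each of the other two.
hsp90: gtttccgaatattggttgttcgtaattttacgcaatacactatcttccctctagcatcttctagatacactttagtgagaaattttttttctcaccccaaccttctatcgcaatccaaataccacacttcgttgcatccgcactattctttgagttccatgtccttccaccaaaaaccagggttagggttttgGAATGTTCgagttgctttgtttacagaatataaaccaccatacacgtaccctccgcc
sti1: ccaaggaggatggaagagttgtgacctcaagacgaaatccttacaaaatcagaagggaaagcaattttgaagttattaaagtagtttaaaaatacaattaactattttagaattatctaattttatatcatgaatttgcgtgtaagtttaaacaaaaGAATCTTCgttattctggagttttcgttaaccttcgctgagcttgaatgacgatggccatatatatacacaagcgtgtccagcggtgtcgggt
hsp16: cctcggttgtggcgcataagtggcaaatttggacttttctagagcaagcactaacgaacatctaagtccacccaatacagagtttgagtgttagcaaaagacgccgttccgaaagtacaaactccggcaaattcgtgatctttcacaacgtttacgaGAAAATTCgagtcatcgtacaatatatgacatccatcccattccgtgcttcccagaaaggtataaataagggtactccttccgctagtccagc
The second set shows gpd1 (chrII:4035316-4035565, plus strand) and ntp1 (chrII:206331-206580, plus strand), with capitals for TGACGT or its reverse complement ACGTCA. Matches begin 123 and 74 bases before gpd1 and 69 bases before ntp1.
gpd1: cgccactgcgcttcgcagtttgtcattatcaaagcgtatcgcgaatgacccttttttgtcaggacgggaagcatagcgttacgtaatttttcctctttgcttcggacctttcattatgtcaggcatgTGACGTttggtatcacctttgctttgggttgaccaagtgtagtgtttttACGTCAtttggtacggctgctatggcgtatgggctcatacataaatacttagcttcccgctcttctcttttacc
ntp1: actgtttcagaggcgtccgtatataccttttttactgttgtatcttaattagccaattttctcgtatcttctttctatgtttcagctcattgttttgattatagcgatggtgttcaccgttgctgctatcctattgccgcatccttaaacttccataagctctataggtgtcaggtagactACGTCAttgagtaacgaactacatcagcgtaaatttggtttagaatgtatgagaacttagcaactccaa
The third set shows fip1 (chrI:4234769-4235018, minus strand) and hsp3105 (chrI:4230600-4230849, plus strand), which lie in 1 run of rich probes, with capitals for a GATA site of the Fep1 type, ATCAGATAA or ATCTGATAA on either strand. It begins 76 bases before fip1 and 105 bases before hsp3105, and the fip1 site is also the one upstream of fio1, which runs the other way.
fip1: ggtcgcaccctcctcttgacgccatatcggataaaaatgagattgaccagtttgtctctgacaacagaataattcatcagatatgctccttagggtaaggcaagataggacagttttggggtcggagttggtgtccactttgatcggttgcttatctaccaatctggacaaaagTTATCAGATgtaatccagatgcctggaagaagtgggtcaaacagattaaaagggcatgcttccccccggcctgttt
hsp3105: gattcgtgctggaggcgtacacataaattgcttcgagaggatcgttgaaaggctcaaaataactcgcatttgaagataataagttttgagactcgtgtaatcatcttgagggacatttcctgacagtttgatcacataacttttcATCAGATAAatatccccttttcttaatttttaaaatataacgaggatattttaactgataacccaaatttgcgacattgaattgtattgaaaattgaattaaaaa

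The motifs were chosen after the genes were known, and a match is a description of the letters in the window. They were searched on both strands from 250 bases before to 50 bases after each gene start. TGACGT was found at 34 of the 215 genes that hold a rich probe (15.8%), against 279 of all 4801 genes with an eligible probe (5.81%). Among member-rich genes, the 101 genes with at least 3 probes in which member probes were no fewer than the other eligible probes, it was found at 20 (19.8%). Of the 5 stress genes named below that hold a rich probe, 3 carry it (gpd1, ntp1 and atf1), and tps1 and cta3 do not. The inverted pair was found at 45 of the 215 genes (20.9%) and at 961 of the 4801 (20.0%), so its share was near that of all genes, although 7 of the 8 heat shock and chaperone genes named below carry it. Of the 12 genes on that list 9 carry it, members or not. A full heat shock element, 3 alternating GAA and TTC units with 2 bases between neighbours, which contains the pair, was found at ssa1 and wis2 only among the 215, and at 22 of the 4801 genes (0.458%). The Fep1-type site was found at 6 of the 215 (2.79%) and 56 of the 4801 (1.17%). These 6 were fip1, fio1, str1, hsp3105, ish1 and SPAC4H3.01.

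Every member probe was well above background and below saturation in both channels on all 4 arrays. By array, the median input brightness (Cy3) ran from 7071 to 13941 units over surroundings of 37 to 43, and the median immunoprecipitate brightness (Cy5) from 4447 to 7696 over 54 to 64. The spread of values over eligible probes was wider on the ON arrays (SD 0.47 for clr3-CDx2 ON and 0.48 for wt ON) than on the OFF arrays (0.40 for clr3-CDx2 OFF and 0.38 for wt OFF). Nothing in the labels speaks of separate cultures within a group, and there are no replicates.

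On the log2 scale the median level of the members was 1.02 in clr3-CDx2 ON, 1.04 in wt ON, 0.69 in clr3-CDx2 OFF and 0.69 in wt OFF cells. Over the 36604 other eligible probes the medians lay at -0.01, -0.00 (a value of -0.0002), -0.01 and 0.00 (0.0015) in the same order. These levels chose the members and are not tested. The ratio was carried by the immunoprecipitate: the median Cy5 signal of the members, relative to the array median, was 0.98, 0.87, 0.67 and 0.66, and the median Cy3 signal was -0.03, -0.16, -0.02 and -0.07. On the ON arrays 85.4% (clr3-CDx2) and 84.2% (wt) of the members reached the threshold, and on the OFF arrays 41.6% (clr3-CDx2) and 44.4% (wt). Over all eligible probes the shares were likewise higher on the ON arrays, at 6.40% and 6.88%, than on the OFF arrays, at 2.13% and 1.57%. The threshold itself fell within genes: just inside it lay probes of tkt1 (0.7325), art1 (0.7310) and SPAC4H3.01 (0.7310), and just outside probes of por1 (0.7309), SPAC4H3.01 (0.7307) and swc3 (0.7307).

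**Figure D1:**
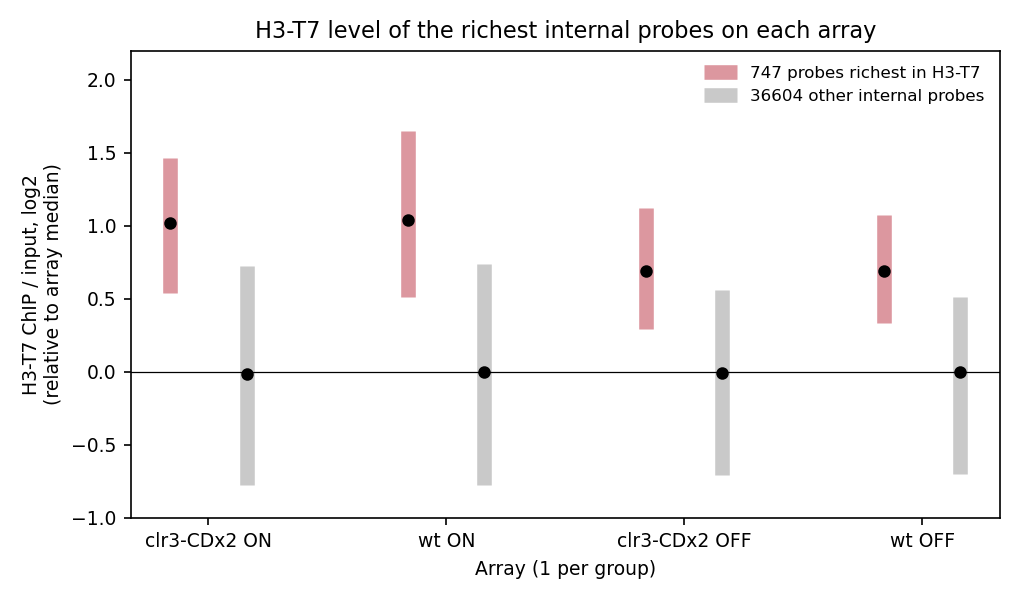
H3-T7 ratio of the 747 member probes (red) and of 36604 other eligible probes (grey) on each array, as log2 over the array median; bars run from the 5th to the 95th percentile of probes and dots are medians. The members' medians are 1.02 and 1.04 on the ON arrays and 0.69 on both OFF arrays, and the ON arrays spread more widely in both sets.

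Members chosen on 3 arrays were read on the array that the choice did not use. There their median was 0.94 for clr3-CDx2 ON, 0.95 for wt ON, 0.64 for clr3-CDx2 OFF and 0.65 for wt OFF, while the median of all eligible probes ran from -0.0021 to 0.0107. Between 98.1% and 99.9% of the members lay above the array median in these readings, against 49.8% to 51.2% of all eligible probes. Of the probes chosen on 3 arrays, 83.3% to 87.8% were also members on 4 arrays. The members were thus high on an array that had no part in their choice.

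The members formed 234 runs of neighbouring probes without a step over 900 bp. Of these, 68 were 1 probe, 41 were 2 probes, 43 were 3, 34 were 4, 10 were 5 and 38 were 6 or more. Runs of 3 or more probes held 597 members (79.9%), and the longest had 11 probes over 3.06 kb. At the run centre the ratio was 1.13 in clr3-CDx2 ON, 1.10 in wt ON, 0.71 in clr3-CDx2 OFF and 0.76 in wt OFF cells (means over 124 probes, from runs of at least 3), and 3 kb to the right of it at 0.29, 0.30, 0.15 and 0.12. Sheared fragments of about 1000 bp widen such a peak.

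**Figure D2:**
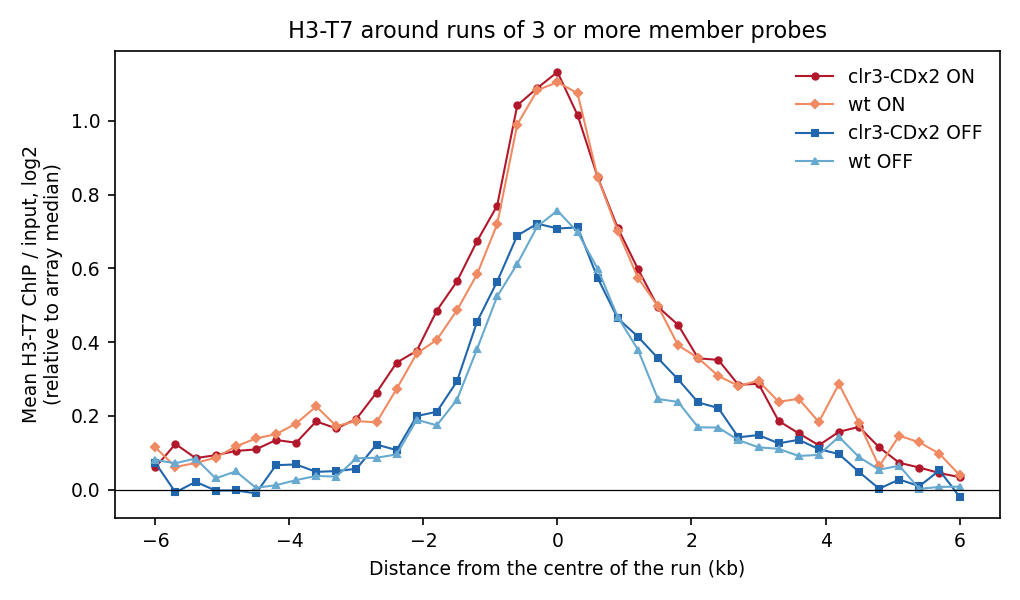
Mean H3-T7 ratio (log2 over the array median) against distance from the centre of runs of at least 3 member probes, 1 line for each array. All 4 lines rise towards the centre, where the ON arrays stand at 1.13 and 1.10 and the OFF arrays at 0.71 and 0.76, and lie at 0.04 or below 6 kb to the right.

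The runs were unevenly spaced. The median gap between neighbouring runs was 27.2 kb, with quartiles of 3.69 and 69.2 kb, and 63 of 231 gaps (27.3%) were under 5 kb while 41 were over 100 kb. The longest stretch without a member was 478 kb. Chromosome I held 371 members in 108 runs (2.18% of its eligible probes), chromosome II held 266 in 91 runs (1.96%) and chromosome III held 110 in 35 runs (1.63%).

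The share of members inside genes was close to that of all eligible probes. Annotated genes were placed on the array by matching probe signal to GC content (see the account of processing), and 629 of 747 members (84.2%) lay inside a protein-coding gene, against 79.9% of all eligible probes, and without the wt OFF array the members' share was 80.5%. With genes cut into 3 equal parts, the central part held 35.1% of members and 24.5% of eligible probes, the 5′ part 26.0% and 26.4%, and the 3′ part 20.1% and 22.7%. Between divergent genes, where promoters face each other, lay 5.09% of members and 9.79% of eligible probes. Between tandem genes lay 9.50% and 9.13%, and between convergent genes 1.205% and 1.197%. No member lay at a tRNA gene or at a small nuclear, small nucleolar or 5S ribosomal RNA gene, where there were 29 and 60 eligible probes. Members are 2% of all eligible probes, so no lack is read from such small numbers. Overlapping fragments make probes of 1 run dependent, so these shares carry no test.

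In member-rich genes the ratio was highest between the 5′ and 3′ ends on every array. With genes cut into 5 equal parts, the mean in clr3-CDx2 ON was 0.89 in the 5′ part, 1.10 in the central part and 0.82 in the 3′ part, and in wt ON it was 0.91, 1.11 and 0.78. In clr3-CDx2 OFF the 3 values were 0.59, 0.68 and 0.54, and in wt OFF 0.57, 0.78 and 0.52. In other genes the order was turned round, with -0.12 (clr3-CDx2 ON), -0.06 (wt ON), -0.09 (clr3-CDx2 OFF) and -0.05 (wt OFF) in the central part and 0.09, 0.05, 0.14 and 0.10 in the 3′ part. Members made up 92.9% of probes in the central part of member-rich genes, 53.4% in the 5′ part and 36.9% in the 3′ part. The choice of genes by their probes and the fragment length both bear on this shape, and their part was not tested.

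**Figure D3:**
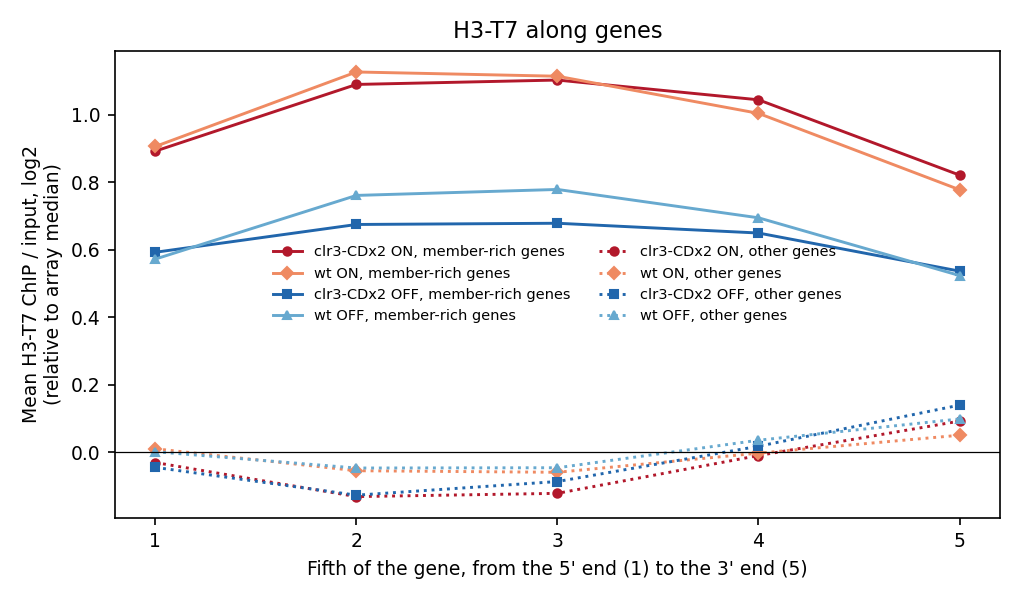
Mean H3-T7 ratio (log2 over the array median) in 5 equal parts of genes from 5′ to 3′, for 101 member-rich genes (solid lines) and other genes (dotted lines), 1 line for each array. In member-rich genes the central part is highest on 3 arrays and wt ON peaks in the part before it, while in other genes the 3′ part is highest.

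In all, 215 genes held at least 1 member, 4.48% of the 4801 genes with an eligible probe. Their GC content was higher than that of other genes, with a median of 39.0% over 209 genes of at least 3 probes against 36.7% over 4169 genes without a member. GC content can move array signals, and its part in the levels was not tested. The median gene length was 1992 bp with a member and 1908 bp without.

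The highest run lay in pgk1, the gene of the glycolytic enzyme phosphoglycerate kinase (gene at II, 4157821 to 4159461, minus strand, ASM294v3). Its 5 probes averaged 1.51 in clr3-CDx2 ON, 1.98 in wt ON, 1.09 in clr3-CDx2 OFF and 1.07 in wt OFF cells. Next came fhn1, which encodes an eisosome protein of the plasma membrane, with 7 probes at 1.30 in clr3-CDx2 ON, 1.64 in wt ON, 1.34 in clr3-CDx2 OFF and 1.09 in wt OFF cells. In pgk1 both ON arrays stood above both OFF arrays, whereas in fhn1 clr3-CDx2 ON lay below clr3-CDx2 OFF. The flocculin gene gsf2 held 2 of the next runs, with means of 1.17 and 1.16 over the 4 arrays. Runs in hsp104 (mean 1.11 over 8 probes), sti1 (1.10 over 6), psi1 (a DNAJ co-chaperone gene, 1.06 over 6), SPBC24C6.09C (a phosphoketolase family gene, 1.06 over 3), SPAC1399.01C (a transporter gene, 1.05 over 8) and bgl2 (a glucan glucosidase gene, 1.05 over 3) followed. A run of 6 probes with a mean of 1.08 had no probe in a protein-coding gene and lay nearest to pgm1, the phosphoglucomutase gene. A run of 2 probes in chp1 ranked next after fhn1 by its mean and is described below, since its arrays disagree.

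The longest runs lay in 1 gene or across a neighbouring pair. That of tps3, annotated as a trehalose-phosphate synthase gene, had 11 probes, 10 of them in the gene, with 1.26 in clr3-CDx2 ON, 1.21 in wt ON, 0.83 in clr3-CDx2 OFF and 0.80 in wt OFF cells. A run of 11 probes covered fip1, the iron permease gene, and hsp3105, annotated as a glyoxalase III gene, with 1.06, 1.12, 0.63 and 0.74 in the same order. Another run of 11 probes covered fyu1 (UTP-glucose-1-phosphate uridylyltransferase) and trp1322 (a TRP-like channel), where the values of 0.78, 0.95, 0.80 and 0.64 were closer together. Runs of 10 probes lay at SPAC513.07 (a reductase gene, mean 0.98), bfr1 (a drug efflux transporter gene, 0.84) and cta3 (0.84), and runs of 9 at hsp90 (1.02), pas1 (a cyclin gene, 0.97) and mfs1 (a transporter gene, 0.95). In hsp90, bfr1, cta3, hsp104 and SPAC1399.01C the gene held each probe of its run. Of 5 runs of 8 probes, the highest lay at hsp104, SPAC1399.01C and wis2 (a cyclophilin gene, 1.01).

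Chaperone genes were the most frequent listed group. Of 12 genes of the heat shock and chaperone list, 8 held a member (66.7%, beside 4.48% of all genes), and the median gene mean over the list was 0.91 against 0.03 over all genes. The 8 cover each main compartment: ssa1 and hsp104 for the cytosol, hsp90 with its co-chaperone sti1, the small heat shock gene hsp16, mcp60 and ssc1 for mitochondria and bip1 for the endoplasmic reticulum. Every group was held at 36 °C for the arrest, so no array shows these genes at the growth temperature. In hsp90 all 9 probes were members, and the gene mean was 1.16 in clr3-CDx2 ON, 1.34 in wt ON, 0.70 in clr3-CDx2 OFF and 0.87 in wt OFF cells. In hsp104 it was 1.23, 1.27, 0.83 and 0.80, and in sti1 1.28, 1.17, 0.83 and 0.91. The ON arrays stood above the OFF arrays in all 3 genes. In ssc1, the mitochondrial Hsp70 gene, the order differed, with 0.62 in clr3-CDx2 ON, 0.97 in wt ON, 0.50 in clr3-CDx2 OFF and 0.85 in wt OFF cells, and in bip1 the values were 0.68, 0.94, 0.32 and 0.62. The gene means of mcp60 and hsp16 lay between 0.54 and 1.18. The highest gene mean of all was that of ssa1 (1.66, 1.70, 1.06 and 1.08), but 4 of its 7 probes were not eligible, and ssa2, its near-identical paralog, has a similar mean (1.54, 1.78, 0.91 and 0.96) with no member among 3 eligible probes. Shared sequence could mix the signals of this pair, so both are uncertain. The list's other genes without a member were hsp9, hsp10 and sks2, with 4-array means of 0.23, 0.62 and 0.27.

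Stress genes came next, with 5 of 11 holding a member (45.5%, beside 4.48% of all genes). The other genes of the list held none. Gene means over the list ran from -0.46 to 0.88, with a median of 0.52. In tps1, which encodes trehalose-6-phosphate synthase, 6 of 7 probes were members and the gene mean was 1.11 in clr3-CDx2 ON, 1.14 in wt ON, 0.64 in clr3-CDx2 OFF and 0.64 in wt OFF cells. In gpd1, the glycerol-3-phosphate dehydrogenase gene of osmotic stress, it was 0.67, 1.24, 0.24 and 0.59, so that both states were lower in clr3-CDx2. The neutral trehalase gene ntp1 stood at 0.82, 0.62, 0.57 and 0.52 and atf1 at 0.63, 0.66, 0.55 and 0.25. Of the 13 glycolysis and fermentation genes, pgk1, gpd3 (glyceraldehyde-3-phosphate dehydrogenase) and pfk1 (phosphofructokinase) held members (23.1%, beside 4.48% of all genes). The median gene mean over this list was 0.48, against 0.03 over all genes. The gpd3 mean was 1.17 in clr3-CDx2 ON, 1.57 in wt ON, 0.73 in clr3-CDx2 OFF and 0.73 in wt OFF cells, and the pfk1 mean 0.52, 0.80, 0.35 and 0.32, with 1 member probe. Only 3 of the 6 gpd3 probes were eligible, and all 3 were members. Glycolysis was not uniform: fba1, the aldolase gene, stood at 0.12, 0.97, -1.05 and -0.61 and held none. Its 4-array mean of -0.14 was the lowest on the list.

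Iron uptake genes lay side by side. In fip1 all 6 probes were members, with a gene mean of 1.19 in clr3-CDx2 ON, 1.38 in wt ON, 0.57 in clr3-CDx2 OFF and 0.76 in wt OFF cells. Its neighbour fio1, the ferroxidase that works with Fip1, had 7 of 9 probes among the members and stood at 1.00, 1.31, 0.43 and 0.69. The siderophore transporter gene str1 on chromosome II stood at 0.91, 0.91, 0.37 and 0.39. These 3 were the only holders among 6 iron and siderophore transport genes with an eligible probe, a class picked from gene products after the values were seen, and in each both ON arrays exceeded both OFF arrays. Hexose transporters were represented by ght2 (2 members, 0.72, 1.00, 0.51 and 0.63) and ght4 (2 members, 0.81, 0.64, 0.40 and 0.35), which with fip1 made 3 of 11 plasma membrane transport genes. The share was 27.3% of these genes and 50% of the iron and siderophore class, beside 4.48% of all genes.

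In the other lists few genes or none held a member. Of 10 histone genes, hta1 (H2A) and hht3 (H3) held 2 members each, and both lie between 0.48 and 0.96 on all arrays. These genes make up 20% of the histone list, beside 4.48% of all genes. The median gene mean over the histone list was 0.48, against 0.03 over all genes. The glucanosyltransferase gene gas2 was the only one of 14 cell wall genes (7.14%), with 4 of 5 probes and a gene mean of 1.13, 1.17, 0.86 and 0.70 in clr3-CDx2 ON, wt ON, clr3-CDx2 OFF and wt OFF cells. No member lay in any of 128 ribosomal protein genes, whose median gene mean was 0.08 and whose highest was 0.55, in 10 translation factor genes (median 0.15) or in 9 sterol and fatty acid genes (median 0.25). Among classes formed from gene products after the values were seen, 3 of 18 DNAJ domain genes (psi1, mas5 and SPAC4H3.01), 8 of 48 transporter genes and 0 of 9 genes of the T-complex chaperonin held a member. The share was 16.7% in each of the DNAJ and transporter classes, beside 4.48% of all genes.

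**Figure D4:**
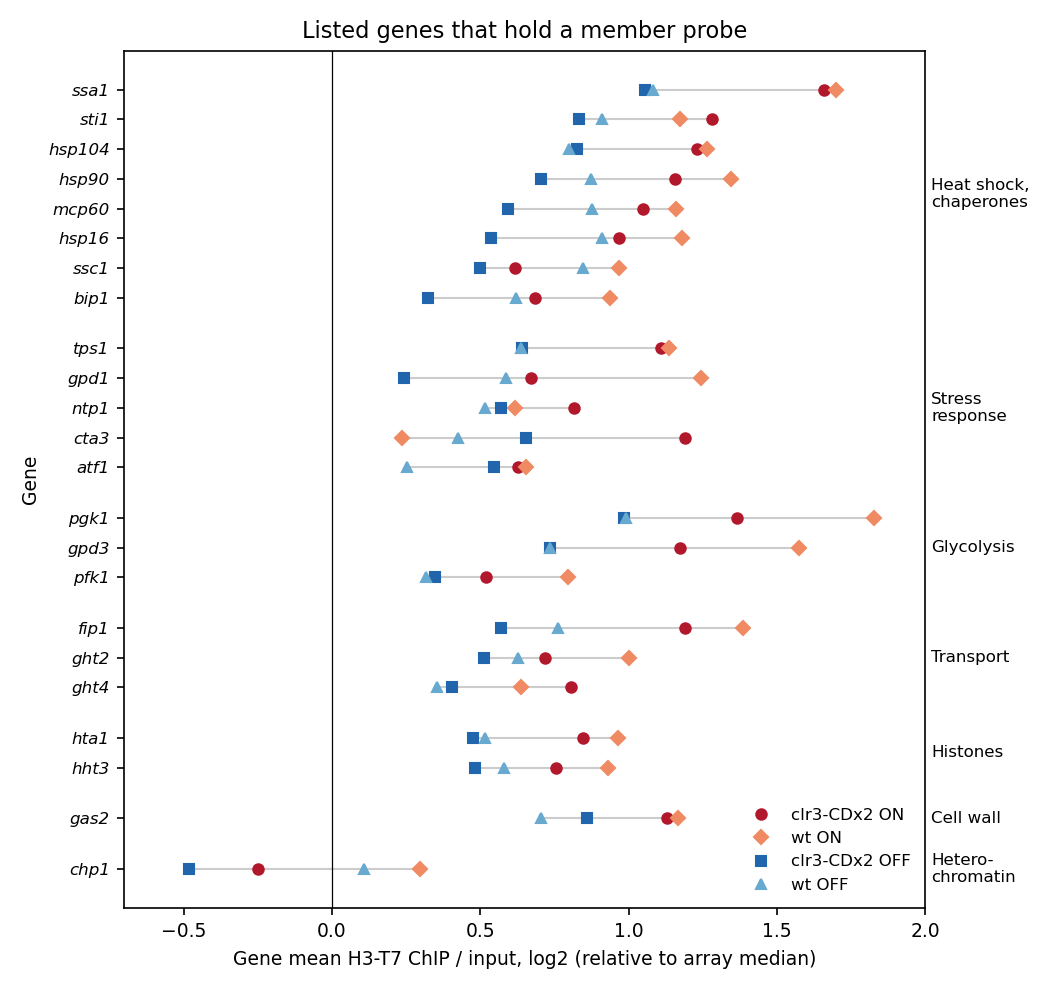
Mean H3-T7 ratio over the probes of each listed gene that holds a member (log2 over the array median), grouped by list, 1 symbol for each array. Most genes show the red and orange ON symbols to the right of the blue OFF symbols, while cta3 has clr3-CDx2 ON alone far right at 1.19 and chp1 has both wt symbols right of both clr3-CDx2 symbols.

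The spread between arrays was wider at members than elsewhere. The median SD of a probe over the 4 arrays was 0.25 at members and 0.20 at other eligible probes, and over runs it was 0.23, with a range of 0.03 to 2.00. The threshold was reached on all 4 arrays by 180 members (24.1%), beside 43 of the 36604 other eligible probes, and by 30 of 234 runs (12.8%). Of the 125 runs of at least 3 probes, those in slt1, SPCC584.16C and sod22 (a sodium/proton antiporter gene) varied least, with SDs of 0.05, 0.06 and 0.07. The slt1 run stood at 0.89 in clr3-CDx2 ON, 0.93 in wt ON, 0.83 in clr3-CDx2 OFF and 0.83 in wt OFF cells. The runs that varied most were those of lsd90 (SD 0.66), met17 (0.63) and sua1 (0.54). In lsd90 the run stood at 1.51 in clr3-CDx2 ON, 1.60 in wt ON, 0.61 in clr3-CDx2 OFF and 0.28 in wt OFF cells, with the ON arrays far above the OFF arrays.

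The comparison of ON with OFF asks whether tethered Clr4, with its change of medium, goes with a different H3-T7 level at these sites. In wt, the median difference over the members was 0.35 (medians of 1.04 in wt ON and 0.69 in wt OFF), and 653 of 747 members (87.4%) were above 0. In clr3-CDx2 it was 0.33 (1.02 in clr3-CDx2 ON and 0.69 in clr3-CDx2 OFF), with 635 (85.0%) above 0. Over all eligible probes the median difference was 0.03 in each genotype, with 53.1% above 0 in each. Members at least 1.5-fold higher in ON numbered 165 in wt (22.1%, beside 6.76% of eligible probes) and 157 in clr3-CDx2 (21.0%, beside 5.13%), while 1 and 8 were at least 1.5-fold lower (beside 4.32% and 4.47%). Both ON arrays lay above both OFF arrays at 516 members (69.1%), beside 26.7% of eligible probes, and at 166 of 234 runs. The differences in wt and in clr3-CDx2 come from separate arrays, while the choice of members used all 4. The Cy5 signal carried most of them, with a median difference of 0.23 in wt and 0.28 in clr3-CDx2, against -0.10 and -0.01 in Cy3.

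The wider spread of the ON arrays moves with this result, since a wide array lifts any high probe and weighs more in the mean that chose the members. When the arrays were scaled to an equal median absolute deviation (MAD), the median difference over the members chosen on those values was 0.13 in wt and 0.15 in clr3-CDx2. How much of the rest belongs to the scale was not tested. The scanner software had also detrended both channels on the OFF arrays and Cy3 alone on the ON arrays, and without this step the medians were 0.35 in wt and 0.32 in clr3-CDx2.

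Genes were then fitted across both genotypes with limma, on the same values that chose the members, in which 1 residual degree of freedom per gene comes from the agreement of wt and clr3-CDx2 and is joined by 15.4 prior degrees of freedom pooled over genes. Of 209 genes with a member and at least 3 probes, 44 rose in ON (21.1%, beside 3.78% of 4599 genes) and 0 fell (beside 2% of genes), at a Benjamini-Hochberg adjusted p below 0.05. At an unadjusted p below 0.05 there were 107 and 2, beside 572 and 449 of the 4599 genes. The ON arrays are wider and weighed more in the choice, so more calls above 0 than over all genes were built in, and nothing is read from the excess. The p-values do not allow for the choice. The median difference was 0.26 over the 209 genes and 0.01 over all genes, and 189 of 209 were above 0. With arrays at equal MAD, 23 rose (11.0%, beside 3.39%) and 1 fell (beside 2.72%). With normexp background correction 8 rose (beside 26 of 4599 genes) and without a genotype term 15 (beside 48), with 0 that fell in each. With 1 array left out in turn, the median difference over the 209 genes was 0.26 to 0.28.

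The gene with the largest difference was lsd90, whose gene mean was 1.47 in clr3-CDx2 ON and 1.503 in wt ON, against 0.52 in clr3-CDx2 OFF and 0.23 in wt OFF cells. It rose by 1.11 (SE 0.12, limma adjusted p = 0.000163), with a Cy3 part of -0.25, and with normexp its limma adjusted p was 0.0563. Both next genes act in sulfur assimilation. The sulfate adenylyltransferase gene sua1 had means of 1.25 and 1.24 in ON (clr3-CDx2, wt), against 0.32 and 0.24 in OFF, and rose by 0.96 (SE 0.12, limma adjusted p = 0.000212). The homocysteine synthase gene met17 had means of 1.19 and 1.15 in ON, against 0.43 and 0.08 in OFF, and rose by 0.92 (SE 0.12, limma adjusted p = 0.000423), with 0.05 in Cy3. In these 3 genes no ON value came near an OFF value. All OFF means lie below the members' threshold, so the ON arrays brought these genes in, and the difference was part of their choice.

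The other 7 of the 10 genes with the smallest adjusted p included SPAPB1A11.03, annotated as a cytochrome-type lactate dehydrogenase (rose by 0.77), pdc201, a pyruvate decarboxylase gene (0.73), tkt1, transketolase (0.68), and the phosphoketolase family gene SPBC24C6.09C (0.70). The others were the flavin monooxygenase gene fmo1 (0.73), the dehydrogenase family gene SPACUNK4.17 (0.73) and rds1 (0.65). The limma adjusted p of these 7 lay between 0.00151 and 0.00383. All OFF means of these 7 genes also lie below the members' threshold. The ON arrays thus brought them in, and the difference was part of their choice. With normexp 4 of the 7 did not pass, with a limma adjusted p of 0.0763 for pdc201, 0.0528 for tkt1, 0.0641 for SPBC24C6.09C and 0.0593 for rds1. Of these, tkt1 also did not pass without clr3-CDx2 OFF (0.0981) or without wt ON (0.108), SPBC24C6.09C without clr3-CDx2 OFF (0.0688) and rds1 without wt OFF (0.0615). Of the listed genes, fip1 rose by 0.62 (SE 0.12, limma adjusted p = 0.00533). The unlisted iron genes fio1 and str1 rose by 0.59 and 0.53 and also passed. The OFF means of these iron genes lie below the members' threshold, except that of fip1 in wt OFF cells (0.76). The ON arrays thus helped to bring them in, and the difference was part of their choice. The iron class was also picked after the values were seen, so nothing is read from each of its holders passing. Of the 8 chaperone genes with members, ssa1 (0.61, uncertain as above), hsp90 (0.46, limma adjusted p = 0.0286) and hsp104 (0.44, 0.0387) rose and 5 did not pass, namely mcp60 (0.37, 0.0755), sti1 (0.36, 0.0898), hsp16 (0.35, 0.0926), bip1 (0.34, 0.100) and ssc1 (0.12, 0.599). Of the 5 stress genes, gpd1 (0.54) and tps1 (0.49) rose, and ntp1 (0.17), atf1 (0.24) and cta3 (0.17) did not pass. The OFF means of gpd1 and tps1 also lie below the members' threshold. The ON arrays thus helped to bring both genes in, and the difference was part of their choice. Among glycolysis genes gpd3 (0.64, with 3 of 6 probes eligible) and pgk1 (0.61) rose and pfk1 (0.33, limma adjusted p = 0.133) did not pass. Neither histone gene passed: hta1 had a difference of 0.41 (limma adjusted p = 0.0513) and hht3 of 0.31 (0.131). Likewise gas2 (0.37, 0.0807), ght2 (0.29, 0.162) and ght4 (0.34, 0.0971) did not pass. The calls of these 10 listed or iron genes were less stable than their direction, which was positive under every alternative run. With arrays at equal MAD, 5 of the 10 did not pass (hsp90, hsp104, ssa1, pgk1 and tps1), with normexp 8 did not (all but fip1 and ssa1), and without the wt ON or the clr3-CDx2 OFF array none of the 10 passed.

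**Figure D5:**
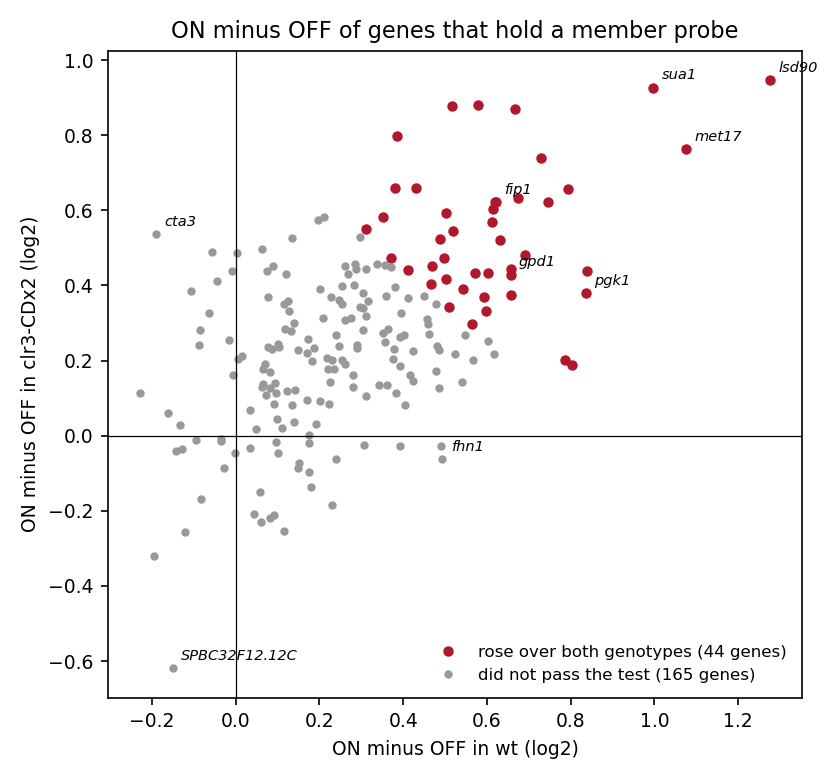
ON minus OFF difference of gene means (log2) in wt (horizontal) and clr3-CDx2 (vertical) for 209 genes that hold a member, with the 44 that rose by limma in red. Most points lie above 0 on both axes, lsd90, sua1 and met17 lie farthest out, and cta3 lies above 0 in clr3-CDx2 and below 0 in wt.

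Among the 209 genes the one nearest to a fall was SPBC32F12.12C, a Golgi membrane protein gene with 1 member, at 0.10 in clr3-CDx2 ON and 0.40 in wt ON, against 0.72 in clr3-CDx2 OFF and 0.55 in wt OFF cells. Its difference was -0.38 (SE 0.13, limma adjusted p = 0.0926). It was followed by git1 (-0.26, limma adjusted p = 0.215) and trp1322 (-0.19, 0.374), and the remaining 7 genes with the smallest p below 0 had differences of -0.13 to -0.07.

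The comparison of clr3-CDx2 with wt asks whether the altered deacetylase gene goes with another H3-T7 level at these sites. Over the members the median difference was -0.04 in ON (medians of 1.02 in clr3-CDx2 ON and 1.04 in wt ON) and -0.00 in OFF (a value of -0.0029). In ON, 17 members (2.28%, beside 2.83% of eligible probes) were at least 1.5-fold higher in clr3-CDx2 and 24 (3.21%, beside 3.52%) lower. In OFF these numbers were 8 (1.07%, beside 1.9%) and 6 (0.803%, beside 1.18%). The members' shares were near those of all eligible probes. By limma over both states, 0 of the 209 genes rose (beside 0.652% of 4599) and 1 fell (beside 0.13%). At an unadjusted p below 0.05 the numbers were 5 and 12, beside 158 and 221 of the 4599 genes.

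The gene that fell was chp1, which encodes a chromodomain protein of the heterochromatin machinery, with a difference of -0.57 (SE 0.12, limma adjusted p = 0.0308). Its probes became members through the wt arrays, so this difference reuses the values of the choice and is given as a description. Its 2 member probes stood at 0.55 and 0.75 in clr3-CDx2 ON, 3.60 and 3.42 in wt ON, -1.31 and -1.14 in clr3-CDx2 OFF and 1.87 and 1.91 in wt OFF cells. In wt ON, Cy5 was 52346 and 42023 there, against a median of 3940.5 over 10 neighbouring probes, while Cy3 was 7624 and 7477, below the neighbours' 9388.5. In clr3-CDx2 OFF, Cy3 was 50225 and 33285 against 8378, and Cy5 15071 and 11787 against 3981. The channel that stood out most thus differed between these arrays. The other 10 probes of the gene averaged -0.43 in clr3-CDx2 ON, -0.35 in wt ON, -0.33 in clr3-CDx2 OFF and -0.25 in wt OFF cells, and without these 2 probes the difference was -0.08. The call thus rests on 2 probes, and over the alternatives its limma adjusted p ran from 0.000818 to 1.00. The source of the extra signal was not tested.

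Next in order was cta3, a P-type cation pump gene, on the other side. Its 10 member probes stood at 1.51 in clr3-CDx2 ON, 0.39 in wt ON, 0.81 in clr3-CDx2 OFF and 0.65 in wt OFF cells, so that clr3-CDx2 ON alone stood apart. The gene's difference between genotypes was 0.59 (SE 0.15, limma adjusted p = 0.10), which did not pass. For gpd1 it was -0.46 (SE 0.12, limma adjusted p = 0.138) and for ssc1 -0.35 (SE 0.12, limma adjusted p = 0.328), and neither passed. The other genes named by the rule for this comparison (SPBC25B2.08, SPAC7D4.08, gpi7, SPBC21B10.08C, mca1, SPAC23C11.06C, ssd2, etr1 and SPAPB1A11.03 above 0, and gln1, hsp16, atg10, pdc202, fio1, gsf2 and bip1 below 0) had differences between -0.31 and 0.32.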

How the data were processed

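H3-T7 ChIP-chip was measured on 4 two-channel arrays, 1 per group, all on 1 slide, with Cy5 as immunoprecipitate and Cy3 as input per the labels' protocol. The deposited scanner intensities were made with Agilent Feature Extraction 12.0.3.1 per the file headers, which subtracted background, detrended (both channels on OFF arrays, Cy3 alone on ON arrays) and scaled the dyes. The deposited log2 values of the series table equal log2 of these processed signals within 5e-10, and the deposited log10 ratios per the file headers were not used.

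Of 42968 spots, 1417 were controls and 531 others carried an outlier flag on some array, which left 41020 probes for centring on each array's median. The genome build of the array positions is not stated. Genes of the RefSeq annotation (ASM294v3) were placed on each of 6 chromosome arms by the shift, -1620 to 4550 bp, at which Cy3 brightness correlated best with GC content (r of 0.232 to 0.305, and at most 0.035 at shifts far from the best). Shifts near the best one were left out of that maximum. On simulated arms the largest error was 61 bp, and between blocks of the real arms the shift had an SD of 45.8 to 118 bp, which is the uncertainty of positions inside genes. A gene's value is the mean of its probes. Genes with at least 3 probes were tested with limma 3.58.1 in R 4.3.3 (tethering state and genotype as additive terms, eBayes, Benjamini-Hochberg over 4599 genes, adjusted p below 0.05). The script was tested on simulated data. Other computing used Python 3.11.15. With 1 array per group, p-values rest on agreement between the 2 genotypes or the 2 states, and the number of arrays limits the precision.

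Named genes are those of the 12 highest and 12 longest runs, listed genes with a member, the 10 smallest adjusted p in each direction of both effects, the 3 runs of largest and of smallest SD, and 3 probes on either side of the threshold. Genes of the iron, trehalose, DNAJ, chaperonin and transporter classes, and the motifs, were added after values were seen, as were fba1 and the chaperone genes without a member. The members and lists were chosen with earlier results of these data known. Alternatives were normexp (on median spot signals, since the files hold no mean signal), no detrending, equal MAD, the series table, other thresholds and running medians, other placements, other limma settings and leaving out each array. The use of median signals and the removal of 2 chp1 probes were chosen after seeing the data.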

Additional observations from a re-analysis of the deposited data

Results flagged for a closer look

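In 10 of the 71 named genes the ON minus OFF difference (log2) had opposite signs in the genotypes, each read from 1 pair of arrays. The difference between the genotypes was not tested. Over all 215 genes with a member, 35 had opposite signs. The share over all measured genes was not taken, so neither an excess nor a lack is read from these counts. The difference was above 0 in clr3-CDx2 and below 0 in wt for cta3 (0.54 in clr3-CDx2 and -0.19 in wt), SPAC7D4.08 (0.49 and -0.058), SPBC21B10.08C (0.41 and -0.044) and mfs1 (0.16 and -0.0058). It was below 0 in clr3-CDx2 and above 0 in wt for the eisosome gene fhn1 (-0.062 in clr3-CDx2 and 0.49 in wt), mtl16 (-0.25 and 0.12), wwm1 (-0.23 and 0.060), SPCC74.04 (-0.22 and 0.083), txc1 (-0.21 and 0.043) and SPCC584.16C (-0.092 and 0.028).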

How the results depend on the processing

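With normexp the median ON minus OFF over members was 0.49 in wt and 0.55 in clr3-CDx2, clr3-CDx2 minus wt in ON was 0.062, and members read on an array left out of their choice stood at 1.49 (clr3-CDx2 ON), 1.39 (wt ON), 0.99 (clr3-CDx2 OFF) and 0.94 (wt OFF). At equal MAD these ON minus OFF medians were 0.13 in wt and 0.15 in clr3-CDx2, and the left-out clr3-CDx2 ON array gave 0.84. The cause was not tested. The top 1% of probes formed 132 runs and the top 5% formed 481, of which 79.8% of probes lay inside genes, and with array positions taken as they stand 72.6% of members did. Without 1 array in turn this share was 80.5% to 86.0%. Genes with members that rose in ON numbered 8 with normexp, 28 without detrending, 23 at equal MAD (where 1 fell), 15 without a genotype term, and 12 to 27 without 1 array in turn. Between genotypes, 1 gene was higher at equal MAD, with at least 5 probes per gene and with probe medians. The number lower was 2 at equal MAD and with at least 5 probes, and 0 with normexp, without detrending, without the other factor, with probe medians, without the 2 chp1 probes, and without each array in turn (0 in each). No value changed sign among 21 named genes followed through the limma alternatives. Leave-one-out fits left 1 group without its array and 1 factor in the model. No paired analysis was possible because each group has 1 array and no replicate number is shared as a block.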

Other observations

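Outside the eligible probes, 61 of 1476 chromosome probes whose names end in f or m (4.13%) reached the threshold of the members, as did 46 of 1913 probes near the tiled ends or in the left-out centromere and mating-type windows (2.40%), beside 2.62% of eligible probes before the running median. None of 48 mitochondrial probes did, and their median was -4.39 on the log2 scale.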
